A study of Mus musculus with 20 samples.

Results

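The genes described here are the 4 transcription factors of the MiT/TFE family (Mitf, Tfe3, Tfeb and Tfec), folliculin (Flcn) with its partners Fnip1 and Fnip2, the Rag GTPases Rragc and Rragd, and Gpnmb. They were picked by gene name from a table of raw read counts, 10 of the 54532 genes listed, and followed across all 20 bulk RNA-seq libraries of the series. The libraries came from 10 kidney tumors and 10 normal kidney regions of C57BL/6 mice of the Cre-less model. All mice had the genotype LSL-Cas9/+; Pax8 Cre/+, in which Cre from the Pax8 locus removes a stop cassette and turns on Cas9 and GFP in Pax8-expressing cells, and the normal kidney tissue therefore carried both alleles as well. An adeno-associated virus (AAV) without Cre, which carried sgRNAs against Vhl, Pbrm1, Keap1 and Tsc1, was injected directly into the kidney. The 10 tumors were taken from 10 mice and the normal regions from those same mice, and each library is bulk tissue that holds tumor or tubule cells together with stroma and immune cells.

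MiT/TFE proteins are basic helix-loop-helix leucine zipper factors that bind E-box sequences upstream of lysosomal and autophagy genes. When nutrients are plentiful, the Rag GTPases bring TFEB and TFE3 to mTORC1 on the lysosome, where they are phosphorylated and then held in the cytoplasm by 14-3-3 proteins. Folliculin with FNIP1 or FNIP2 is the GTPase-activating complex for RagC and RagD, and TSC1 is part of the complex that restrains mTORC1 through Rheb. Fusions of TFE3 or TFEB define a class of kidney cancer, germline loss of FLCN causes kidney tumors in Birt-Hogg-Dubé syndrome, and Gpnmb, a transmembrane glycoprotein of lysosomes and the cell surface, is a known transcriptional target of these factors. Rragc, Rragd and Flcn are targets as well as regulators. The measurements here are of RNA and carry nothing on phosphorylation or location of the proteins.

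Tumor libraries held 18447394 to 24902973 counts, and those of normal kidneys 14737516 to 26679704. Of the edited genes, Vhl was lower in tumors by a log2 fold change of -0.49 (adjusted p = 0.00179, edgeR quasi-likelihood test) and Tsc1 by -0.61 (adjusted p = 0.00871), Keap1 was higher by 0.83 (adjusted p = 1.30e-07), and Pbrm1 differed by -0.28 (adjusted p = 0.230); gene counts still include reads from edited alleles and so do not measure the edit. Summed markers of the distal nephron and collecting duct, of which 12 of 12 tested were lower in tumors, lay between 3.68 and 46.5 CPM (counts scaled by library size to a common total) in tumors and between 4267 and 10553 CPM in normal kidneys. Summed proximal tubule markers (6 of 12 lower, 0 higher, median log2 fold change -1.41) lay between 1350 and 10487 CPM in tumors and between 2676 and 15593 CPM in normal kidneys, so the normal tissue carried the markers of its label. Tumor 7 stood apart, with the lowest proximal tubule sum of the tumors and by far the highest sum of fibroblast and endothelial markers, 8431 CPM against 304 to 1139 CPM in the other 9 tumors. Normal kidney 9 had the lowest scaling factor (0.749). Normal kidneys 5, 7 and 8 had 2533, 3296 and 1761 CPM of Lcn2, a gene of injured tubules, against at most 232 CPM in the other 7, a marker chosen after its values were seen. They also had the lowest proximal tubule sums of their group, 3467, 2676 and 4855 CPM.

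Of the 10 genes, which all passed the filter on low counts, 6 were higher in tumors (Gpnmb, Tfec, Rragd, Rragc, Flcn and Tfe3), 2 were lower (Mitf and Tfeb) and 2 did not pass the test (Fnip1 and Fnip2), by edgeR's quasi-likelihood test at an adjusted p under 0.05. Among all 15354 genes tested, 23.6% were called higher and 23.8% lower, 47.5% in all. The median log2 fold change was 0.54 over the 10 genes and -0.021 over all genes tested. With the limits of a log2 fold change beyond 1 and an unadjusted p under 0.001, Gpnmb and Tfec were higher and Mitf was lower, where 8.85% and 10.2% of all genes passed. Scaling by library totals or the upper quartile moved the median of all genes to -0.14 and the share of calls that were higher from 49.8% to 38.5% and 39.2%, and under the former Tfe3 was no longer called. Without tumor 7 and normal kidney 9, a choice made after seeing the data, 6 of the genes were higher and 3 lower.

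**Figure D1:**
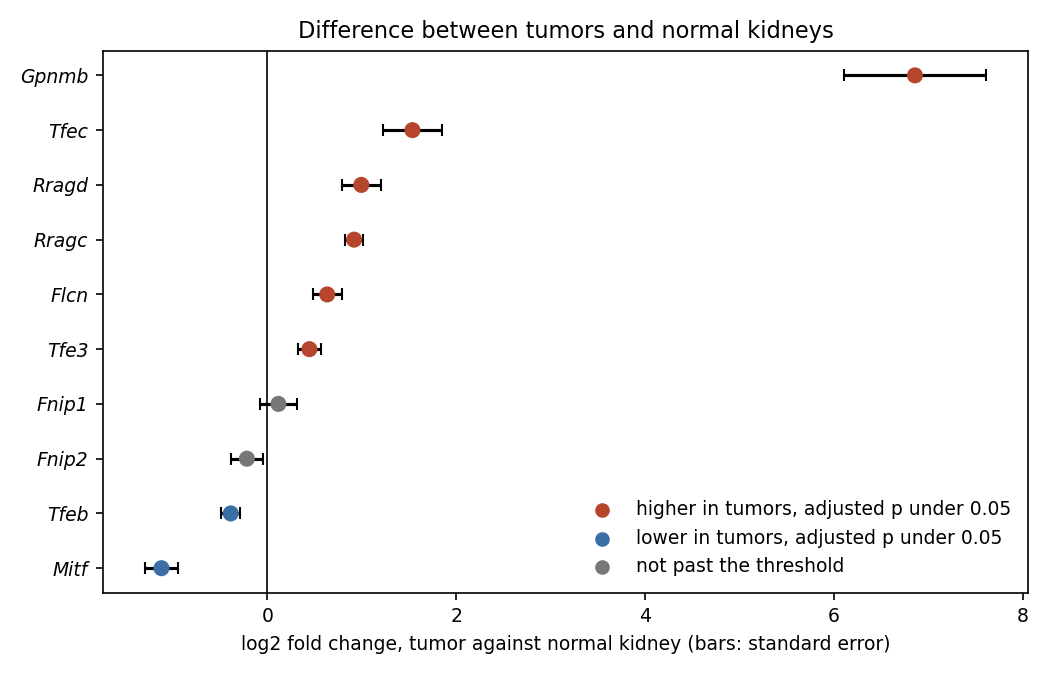
Log2 fold change of each gene (x axis, tumor against normal kidney; 10 libraries per group), with points for the fitted value and bars for its standard error. Gpnmb stood at 6.85, far from the other 9 genes, which lay between -1.12 and 1.54; the value of Fnip1 (0.12) changes sign when counts are scaled by library totals or the upper quartile.

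The promoters of Rragc, Fnip1 and Gpnmb are shown because they carry, or lack, the sequence that the family binds. RefSeq entries of build GRCm38.p6 matched all 10 genes with 15 windows, and the 250 bases upstream of each transcript start were searched on both strands for the E-box CACGTG, for TCACGTG, which contains it, for the CLEAR element, a longer palindrome that contains both, and for the M-box TCATGTG. The windows of Rragc and Fnip1 held TCACGTG, and capitals mark the match on the opposite strand. The window of Gpnmb held none of these and has no capitals.
Rragc, chr4:123917183-123917432, plus strand: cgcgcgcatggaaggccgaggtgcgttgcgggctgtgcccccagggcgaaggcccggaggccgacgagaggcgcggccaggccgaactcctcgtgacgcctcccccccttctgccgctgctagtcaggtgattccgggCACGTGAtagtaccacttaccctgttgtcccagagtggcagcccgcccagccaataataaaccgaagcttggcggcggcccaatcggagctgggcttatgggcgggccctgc
Fnip1, chr11:54437929-54438178, plus strand: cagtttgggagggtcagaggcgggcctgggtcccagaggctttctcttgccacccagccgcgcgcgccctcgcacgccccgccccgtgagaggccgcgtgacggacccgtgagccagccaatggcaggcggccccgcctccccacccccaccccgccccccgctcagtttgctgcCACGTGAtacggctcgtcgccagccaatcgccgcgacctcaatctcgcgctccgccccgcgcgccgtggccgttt
Gpnmb, chr6:49036268-49036517, plus strand: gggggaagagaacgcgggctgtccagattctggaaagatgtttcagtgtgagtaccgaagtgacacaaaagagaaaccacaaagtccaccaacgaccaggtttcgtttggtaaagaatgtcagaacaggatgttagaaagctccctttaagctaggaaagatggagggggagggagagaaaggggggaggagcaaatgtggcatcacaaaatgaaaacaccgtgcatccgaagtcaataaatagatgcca
The match lay at bases -112 to -106 from the start in Rragc and at -75 to -69 in Fnip1. TCACGTG was present in 2 of the 15 windows of these genes and in 3.13% of the 32851 windows of all genes, CACGTG in the same 2 and in 6.02%, the CLEAR element in 0 and 0.24%, and TCATGTG in 0 and 3.25%. Rragc rose in tumors and Fnip1 did not pass the test, whereas Gpnmb, without a match in this window, had the highest fold change of the 10 genes. A match in letters is not a measured binding site.

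Among the transcription factors, Tfec rose and Mitf and Tfeb fell in tumors, and Tfe3 rose by a smaller amount. Tfec (ENSMUSG00000029553, chr6:16833373-16898441; all gene coordinates are in mm10, and all 10 genes are protein-coding), the family member with the most restricted expression and best known from macrophages and osteoclasts, was measured in tumors at 12.3 CPM (lowest), 35.4 CPM (median) and 53.9 CPM (highest), and in normal kidneys at 3.02, 14.4 and 21.0 CPM. Every tumor except tumor 7 was above every normal kidney. The mean log2 CPM was 5.10 ± 0.60 in tumors against 3.45 ± 0.93 in normal kidneys (SD over 10 libraries each), and the fitted change was 2.90-fold (log2 fold change 1.54 ± 0.31 SE, edgeR adjusted p = 0.000315). The lowest levels in normal kidneys, 3.02, 5.77 and 5.51 CPM, were those of the libraries 5, 7 and 8 with high Lcn2, and whether that state of the tissue contributes was not tested.

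Mitf (ENSMUSG00000035158, chr6:97807052-98021349), the factor of melanocyte and osteoclast development, lay between 6.09 and 11.4 CPM in tumors (median 7.79) and between 9.87 and 24.5 CPM in normal kidneys (median 18.2). In 9 tumors it was below every normal kidney, tumor 7 at 11.4 CPM being the exception. It fell by 1.12 on the log2 scale (SE 0.17, 2.17-fold lower, edgeR adjusted p = 2.03e-05), from a mean log2 CPM of 4.06 ± 0.49 in normal kidneys to 3.00 ± 0.25 in tumors (SD, n = 10 each). Normal kidneys 9, 7, 5 and 8 were the lowest of their group, at 9.87, 10.6, 12.1 and 14.3 CPM. Melanocyte genes were near 0: Tyr and Oca2 had 0 counts in all 20 libraries, and the summed 8 melanocyte markers stayed between 0.895 and 1.55 CPM in tumors and between 0.645 and 1.61 CPM in normal kidneys.

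Tfeb (ENSMUSG00000023990, chr17:47737030-47792419), a regulator of lysosome and autophagy genes, ranged from 16.7 to 26.1 CPM in tumors (median 20.6) and from 21.4 to 33.1 CPM in normal kidneys (median 27.5). The groups overlapped, with 6 tumors below every normal kidney. It fell by 0.39 on the log2 scale (SE 0.099, edgeR adjusted p = 0.00288). Tfe3 (ENSMUSG00000000134, chrX:7762560-7775202), its close relative with overlapping targets, ranged from 36.4 to 59.1 CPM in tumors (median 47.4) and from 29.2 to 55.0 CPM in normal kidneys (median 30.8). Here 7 normal kidneys were below every tumor, and the other 3, at 55.0, 41.4 and 38.8 CPM, were again libraries 5, 7 and 8. The fitted difference of Tfe3 was a log2 fold change of 0.45 ± 0.12 SE (edgeR adjusted p = 0.00403), and 0.33 (adjusted p = 0.0571) when counts were scaled by library totals.

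**Figure D2:**
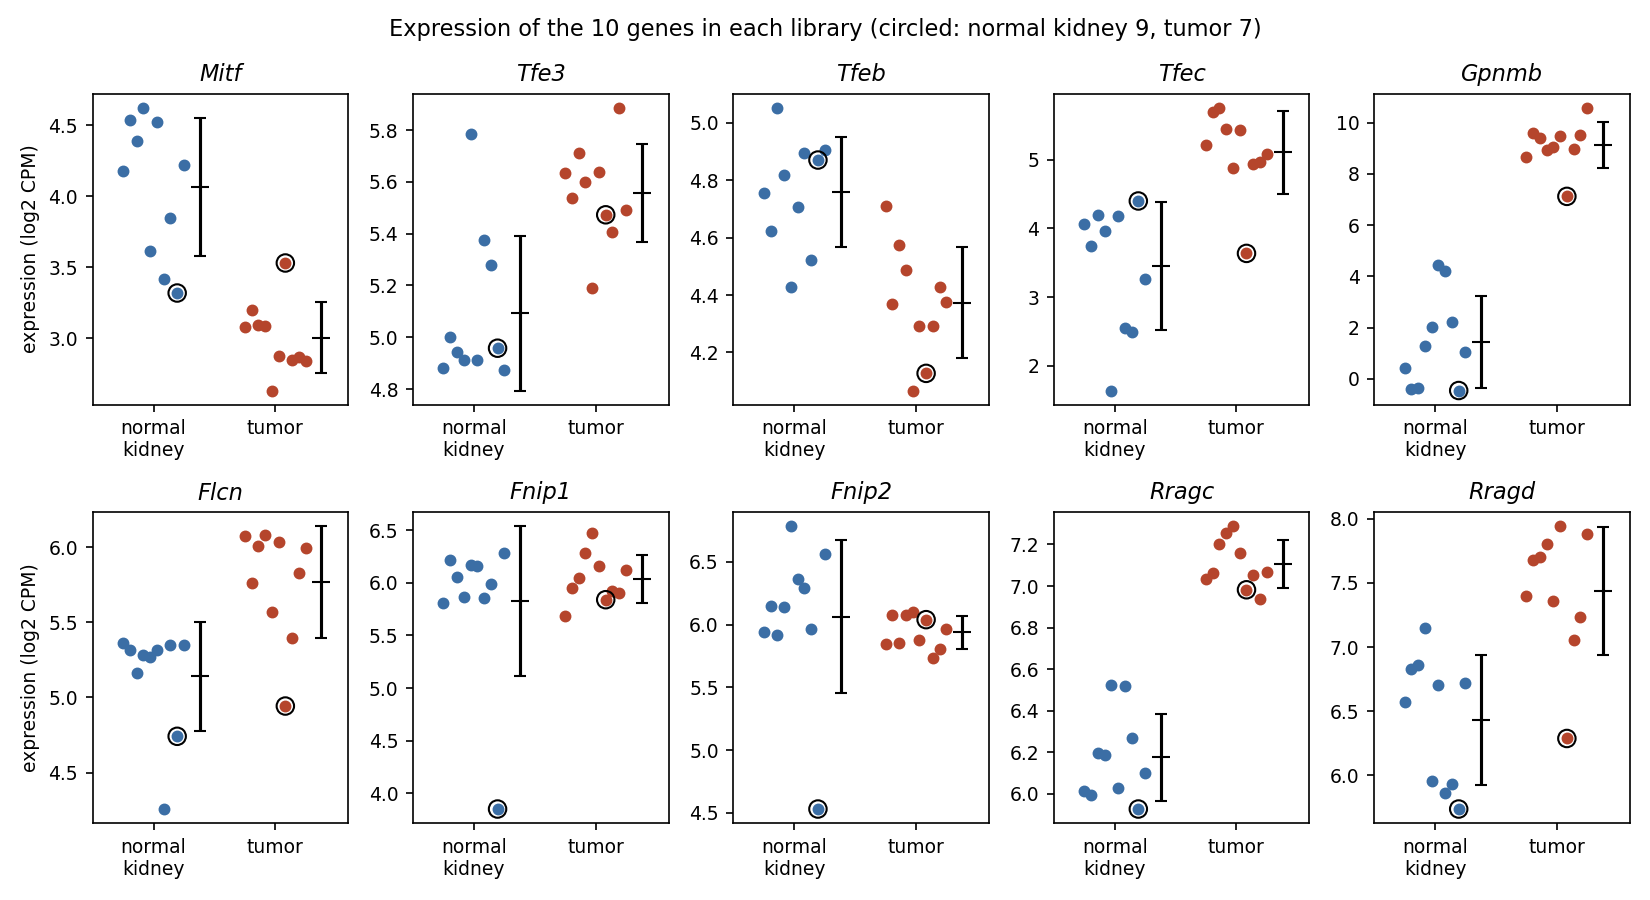
Expression (log2 CPM, y axis) of the 10 genes in each of the 10 normal kidney and 10 tumor libraries, with the mean and SD of each group beside the points. Circles mark normal kidney 9 and tumor 7; all tumors lie above all normal kidneys for Gpnmb and Rragc, and tumor 7 is the lowest tumor for Gpnmb, Tfec, Flcn and Rragd.

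Levels of different genes can be compared only per gene length, and on that scale (CPM per kilobase of exon) the leading factor of the family differed between groups. The length was the union of all exons of a gene, 9261 bases for Tfe3, 5669 for Tfeb and 5594 for Tfec, and not that of the expressed transcript. The order of the factors and their shares depend on it. In CPM, the mean of Tfe3 was above that of Tfec in tumors (47.3 against 36.7) and above that of Tfeb in normal kidneys (34.7 against 27.2). Tfec was at 6.55 ± 2.18 CPM per kilobase in tumors and 2.26 ± 1.12 in normal kidneys (mean and SD, n = 10 each). Tfe3 was at 5.11 ± 0.66 against 3.75 ± 0.89, Tfeb at 3.67 ± 0.50 against 4.79 ± 0.63, and Mitf at 1.30 ± 0.24 against 2.82 ± 0.88 CPM per kilobase. In tumors Mitf was lowest, and its highest library lay below the lowest of each other factor, while Tfec and Tfe3 overlapped, as did Tfe3 and Tfeb. In normal kidneys the order was Tfeb, Tfe3, Mitf and Tfec, and each neighboring pair overlapped. Tfec had the highest level of the 4 factors in 8 tumors and Tfe3 in the other 2, while in normal kidneys Tfeb was highest in 8 and Tfe3 in 2. Summed over the factors, the level was 16.6 ± 2.80 CPM per kilobase in tumors and 13.6 ± 1.33 in normal kidneys. Of that sum Tfec made up 38.5% ± 8.34 in tumors and 16.1% ± 7.27 in normal kidneys, Tfeb 22.3% ± 2.41 and 35.2% ± 3.88, Mitf 8.06% ± 2.66 and 20.5% ± 5.28, and Tfe3 31.2% ± 4.48 and 28.2% ± 9.11.

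**Figure D3:**
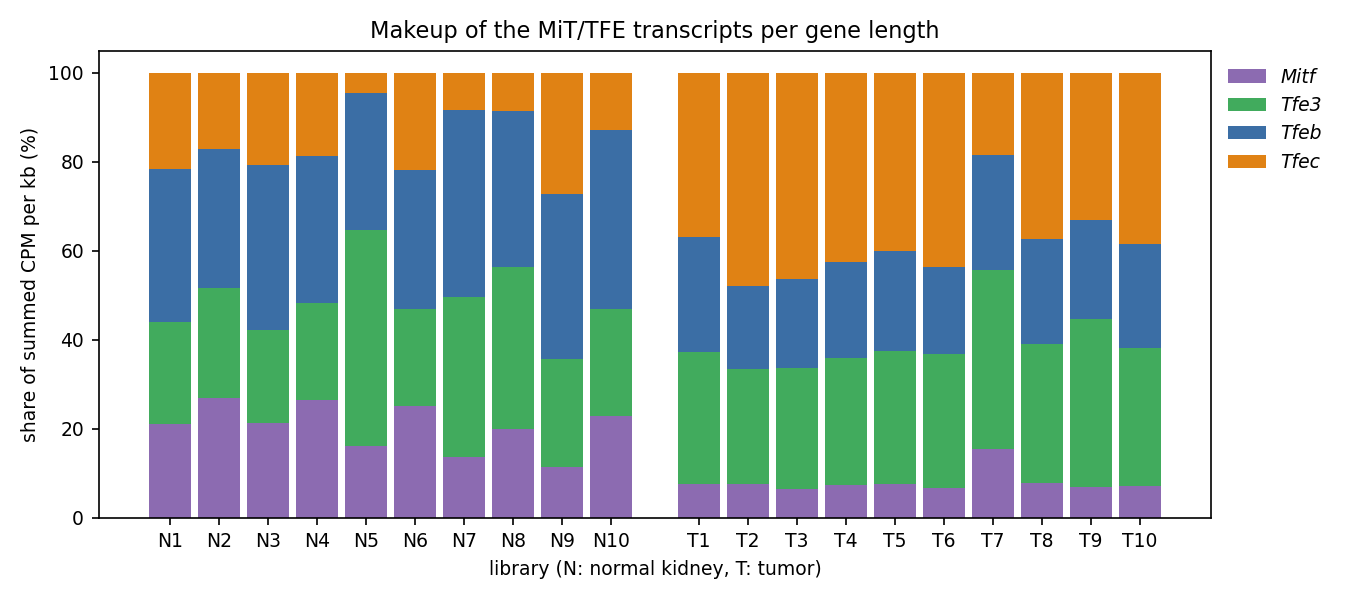
Share of the summed CPM per kilobase of the 4 MiT/TFE factors (y axis, percent) in each normal kidney (N1 to N10) and tumor (T1 to T10). Tfec took between 18.5% and 47.8% in tumors, with tumor 7 lowest, and between 4.43% and 27.1% in normal kidneys.

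Ratios within a library do not depend on how the library is scaled, and 4 of the 5 ratios compared differed between groups (permutation test, 100000 resamples, two-sided, p adjusted over 5). The ratio of Tfec to Tfeb was 0.720, 1.72 and 2.55 in tumors (lowest, median and highest) and 0.144, 0.553 and 0.730 in normal kidneys, a 4.15-fold difference of the means on the log scale (adjusted p = 0.0001), with 9 tumors above every normal kidney. The ratio of Tfe3 to Tfeb was 1.81-fold higher in tumors (median 1.34 against 0.687, adjusted p = 0.0006), but only 1 tumor was above every normal kidney. The ratio of Mitf to Tfeb differed by -0.68 on the log2 scale (median 0.334 against 0.573, adjusted p = 0.005), which shows that Mitf was lower relative to Tfeb, itself lower in tumors. The groups overlapped in this ratio, with 2 tumors below every normal kidney.

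In the folliculin complex, Flcn rose and its partners did not pass the test. Flcn (ENSMUSG00000032633, chr11:59791408-59810016) was at 30.6, 60.2 and 67.4 CPM in tumors (lowest, median and highest) and at 19.0, 39.2 and 40.99 CPM in normal kidneys. Every tumor but tumor 7 was above every normal kidney, 8 of which lay in the narrow range of 35.7 to 40.99 CPM. The change was 1.55-fold (log2 fold change 0.63 ± 0.15 SE, edgeR adjusted p = 0.00174). Fnip1 (ENSMUSG00000035992, chr11:54438199-54518235) ranged from 51.4 to 88.6 CPM in tumors (median 63.8) and from 14.3 to 77.7 CPM in normal kidneys (median 64.9), with a log2 fold change of 0.12 ± 0.19 SE (adjusted p = 0.643). The value of 14.3 CPM belonged to normal kidney 9, and the next lowest normal kidney was at 56.1 CPM.

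Fnip2 (ENSMUSG00000061175, chr3:79455974-79567796) ranged from 53.2 to 68.4 CPM in tumors (median 60.5) and from 23.0 to 110.1 CPM in normal kidneys (median 70.5), with normal kidney 9 again lowest and the next at 60.3 CPM. Its log2 fold change was -0.22 ± 0.17 SE (edgeR adjusted p = 0.319). Without normal kidney 9 it became -0.33 and was called lower (adjusted p = 0.0135), and that of Fnip1 became -0.0091 (adjusted p = 0.944). The tumors were tightly grouped for Fnip2, with an SD of 0.13 in log2 CPM against 0.61 in normal kidneys. The ratio of Fnip2 to Fnip1 was lower in tumors by 0.34 on the log2 scale (median 0.756 against 1.00, permutation test, adjusted p = 0.00797), and 6 tumors were below every normal kidney in this ratio.

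In the fit over all libraries, the genes of both Rag GTPases of the RagC and RagD kind rose by nearly the same amount. Rragc (ENSMUSG00000028646, chr4:123917446-123936997), whose product pairs with RagA or RagB to recruit mTORC1, was at 123, 134 and 156 CPM in tumors (lowest, median and highest) and at 60.8, 70.6 and 92.1 CPM in normal kidneys. The groups did not overlap, which held for 5.87% of all genes in that direction and, with Gpnmb, for 2 of the 10; 4.74% of all genes had every tumor below every normal kidney, and none of the 10 did. The rise was 1.89-fold (log2 fold change 0.92 ± 0.091 SE, edgeR adjusted p = 4.71e-08). The 3 highest normal kidneys were libraries 5, 7 and 8, at 92.1, 91.7 and 76.9 CPM. An antisense gene, 4930535I16Rik, shares 264 bases (7.90%) of the exons of Rragc, and had a mean of 0.35 counts per library.

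Rragd (ENSMUSG00000028278, chr4:32983037-33022180), its paralog and a well-known target of MiT/TFE factors, was at 78.0, 187 and 246 CPM in tumors and at 53.2, 99.6 and 142 CPM in normal kidneys. In 8 tumors it was above every normal kidney, while tumor 7 (78.0 CPM) and tumor 8 (133 CPM) lay within the normal range. Normal kidneys 9, 7, 8 and 5 were the lowest of their group, at 53.2, 58.1, 61.1 and 61.9 CPM. The other normal kidneys lay between 95.1 and 142 CPM. The rise was 1.99-fold (log2 fold change 1.00 ± 0.21 SE, edgeR adjusted p = 0.000518). Per kilobase, Rragc was at 41.3 ± 3.36 CPM in tumors and 21.8 ± 3.34 in normal kidneys, and Rragd at 35.1 ± 10.1 and 17.6 ± 5.88, so that the levels of these paralogs overlapped in either group. The ratio of Rragd to Rragc differed by 0.076 on the log2 scale (permutation test, adjusted p = 0.759), a value that turned to -0.016 without normal kidney 5 and to -0.026 without normal kidney 7. In normal kidneys 5, 7, 8 and 9 the ratio was 0.434, 0.409, 0.513 and 0.566, against 0.951 to 1.26 in the other normal kidneys. The tumor median of 0.871 lay between these sets, so the likeness of the rises depended on which normal kidneys were compared.

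Gpnmb (ENSMUSG00000029816, chr6:49036546-49070929) had the highest fold change of the 10 genes. It was at 139, 599 and 1537 CPM in tumors (lowest, median and highest) and at 0.628, 2.14 and 21.5 CPM in normal kidneys, from 3262 to 35535 counts in a tumor library and from 10 to 500 counts in a normal one. The groups did not overlap, and the lowest tumor, tumor 7, was well above normal kidneys 6 and 7, the highest of their group at 21.5 and 18.3 CPM. Next in the group were normal kidneys 8 and 5, at 4.49 and 4.02 CPM, and the rest had at most 2.31 CPM. Libraries 5, 7 and 8 are those with high Lcn2, whereas library 6 had 25.9 CPM of Lcn2. Whether that state of the tissue contributes was not tested. The mean log2 CPM was 9.13 ± 0.88 in tumors against 1.44 ± 1.79 in normal kidneys (SD over 10 libraries each), and the fitted rise was 116-fold (log2 fold change 6.85 ± 0.75 SE, edgeR adjusted p = 2.06e-07). The size of the rise depended on the fit, with a log2 fold change of 7.68 by limma-voom, 8.38 with quality weights and 7.81 with same-numbered libraries as a replicate block, each over 1.5 times the fold above. Ranked by log2 fold change, it was number 27 of the 15354 genes tested. By group means per kilobase it was the lowest of the 10 genes in normal kidneys, at 0.856 ± 1.18 CPM, and the highest in tumors, at 99.6 ± 56.0 CPM. Single libraries departed from this order. In tumor 7 Gpnmb (21.4 CPM per kilobase) was below Rragc (37.8), and in normal kidneys 5, 6 and 7 it was above Tfec (0.616, 3.30 and 2.80 against 0.541, 3.23 and 1.03).

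Macrophages also make Gpnmb, and their markers moved in the same direction. Of the 17 macrophage markers tested of 18 listed, 11 were higher in tumors, 0 were lower and 6 did not pass the test, with a median log2 fold change of 1.35 and a range of 0.67 to 3.48. The largest rises were those of Cd68 (3.48, adjusted p = 8.37e-06), a lysosomal glycoprotein, and of the surface receptors Cd163 (2.55, adjusted p = 0.00744) and Mrc1 (2.05, adjusted p = 0.00446), followed by Trem2, a lipid receptor (1.91, adjusted p = 0.00198; all edgeR). Tumor 7 carried much of this: without it 9 markers were higher with a median of 0.83, and Cd163 lost its call (1.26, adjusted p = 0.0520), while Mrc1 (1.06, adjusted p = 0.0151) and Trem2 (1.26, adjusted p = 0.00352) kept theirs. The median level of Mrc1 in tumors was 18.8 CPM, against 13.0 CPM in normal tissue, and that of Cd163 10.7 and 5.02 CPM. Cd68 was at 3.40 without tumor 7 and at 4.21 without normal kidney 7. The summed level of the markers ranged from 719 to 3407 CPM in tumors (median 1381) and from 346 to 1199 CPM in normal kidneys (median 540), so the groups overlapped. The highest sum of the tumors, 3407 CPM, was in tumor 7, which had the lowest Gpnmb and Tfec of the tumors. The highest of the normal kidneys, 1199 CPM, was in normal kidney 9, which had the lowest Gpnmb of all libraries. That rank of normal kidney 9 rests on 10 counts, against 11 and 14 counts in normal kidneys 2 and 3. Normal kidney 9 is also the library with the lowest scaling factor (0.749). In bulk tissue, fewer cells of a type and less RNA per cell cannot be told apart.

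Osteoclasts use Mitf and Tfec as well, and of 7 of their markers 4 were tested, of which 3 rose (median log2 fold change 1.54). They were Itgb3, an integrin subunit (3.38, adjusted p = 2.74e-07), Acp5, a lysosomal acid phosphatase (2.59, adjusted p = 1.17e-09), and Nfatc1, a transcription factor (0.49, adjusted p = 0.0242; log2 fold changes by edgeR), while Calcr, the calcitonin receptor, was at -0.78 (adjusted p = 0.220). Ocstamp, Dcstamp and Oscar were too low to be tested, at no more than 1.06 CPM in any library. Of 9 fibroblast and endothelial markers, Cdh5, a junction protein of endothelium, rose (0.83) and 8 did not pass the test (median 0.070), and without tumor 7 the median was -0.44 with 1 higher and 2 lower, Dcn and Pdgfrb. The part of macrophages or other cells in the levels of the 10 genes was not tested.

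Within groups, the level of Gpnmb was compared with that of the other 9 genes and with the macrophage sum, 20 relations in all, and none passed an adjusted p of 0.05 (permutation tests, two-sided). The closest in tumors was that with Rragd (Pearson r = 0.82, permutation p = 0.00800, adjusted p = 0.160; Spearman rho = 0.49, permutation p = 0.155, adjusted p = 0.777; n = 10). Without tumors 7 and 10, the lowest and the highest in Gpnmb, its r was 0.32 (exact permutation p = 0.433). Leaving out both ends narrows the range of Gpnmb and leaves fewer tumors, so this fall cannot show that the relation rested on them. Leaving out single tumors gave r between 0.49 and 0.87. The values for Tfec (r = 0.70, permutation p = 0.0553, adjusted p = 0.276; rho = 0.35, permutation p = 0.329, adjusted p = 0.974) and Flcn (r = 0.69, permutation p = 0.0405, adjusted p = 0.276; rho = 0.042, permutation p = 0.918, adjusted p = 0.974) went to 0.38 (exact permutation p = 0.334) and -0.0065 (exact permutation p = 0.988) without these tumors. With the macrophage sum, r was -0.51 in tumors (permutation p = 0.134, adjusted p = 0.434; rho = -0.055, permutation p = 0.892, adjusted p = 0.974) and 0.24 without tumor 7, and -0.067 in normal kidneys (permutation p = 0.857; rho = 0.055, permutation p = 0.891). In normal kidneys, leaving out the 2 libraries farthest from the median of Gpnmb, 6 and 7, raised some relations. There r with Tfec went from -0.43, opposite in sign to tumors, to -0.83 (exact permutation p = 0.00714, not adjusted). With Rragc it went from 0.51 to 0.76 (exact permutation p = 0.0221, not adjusted), and with Flcn it changed sign, from -0.28 to 0.52. Among the normal kidneys left, libraries 5 and 8, with high Lcn2, had the highest Gpnmb (4.02 and 4.49 CPM). They also had the lowest Tfec (3.02 and 5.51 CPM) and the highest Rragc (92.1 and 76.9 CPM) of these. Whether the relations rest on that state of the tissue was not tested.

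**Figure D4:**
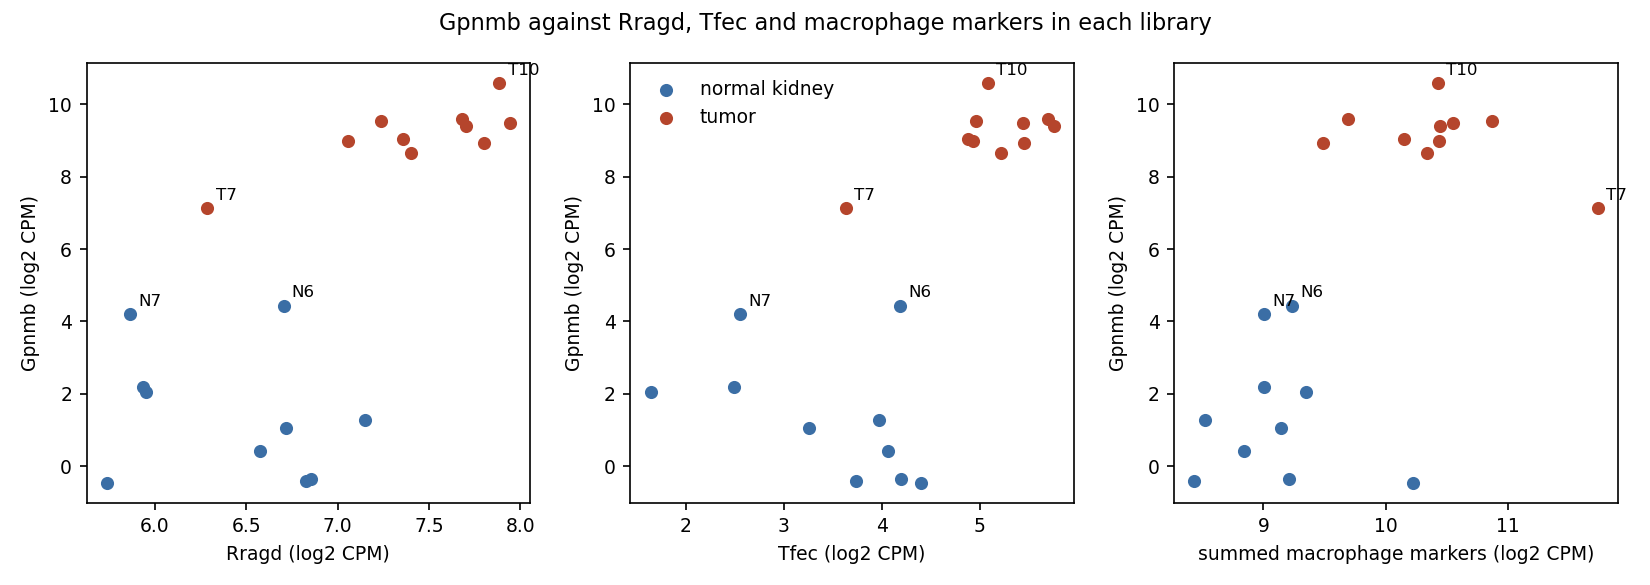
Gpnmb (log2 CPM, y axis) against Rragd, Tfec and the summed macrophage markers (log2 CPM, x axes) in each of 10 tumors and 10 normal kidneys, with the outermost libraries labelled (T for tumor, N for normal kidney). Tumor 7 combines the lowest Gpnmb of the tumors with the highest macrophage sum, and tumor 10 has the highest Gpnmb.

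As a description, the protein-coding genes whose level over the 10 tumors was most like that of Gpnmb, of 12732 with a mean of at least 1 CPM in tumors, were Mlxipl (r = 0.951), which encodes a glucose-responsive transcription factor, Akr1b10 (0.947), an aldo-keto reductase, Pot1a (0.928), a telomere protein, Zfp59 (0.927) and Tcf24 (0.920). Over the normal kidneys the same genes had r between -0.48 (Akr1b10) and 0.57 (Tcf24) with Gpnmb. Most like Rragd were Slc25a36 (0.988), a mitochondrial nucleotide carrier, Glo1 (0.985), a glyoxalase, Zfp994 (0.984), Tmem33 (0.983) and Mtif2 (0.982), a mitochondrial translation factor. Of these, Slc25a36, Zfp994 and Mtif2 also followed Rragd over the normal kidneys (0.88, 0.91 and 0.86), whereas Glo1 (-0.43) and Tmem33 (-0.014) did not. Between groups, Mlxipl (log2 fold change 0.67) and Tcf24 (0.84) were called higher in tumors, whereas Akr1b10, Pot1a and Zfp59 did not pass the edgeR test. Slc25a36, Glo1, Zfp994, Tmem33 and Mtif2, at -0.15 to 0.24, did not pass it either. The highest r of 12732 genes over 10 tumors are high by selection. All points share libraries and scaling, and tumor 7 was the lowest tumor for both Gpnmb and Rragd.

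Most of the listed target genes of the family were higher in tumors. Of 54 targets 53 were tested, of which 35 rose, 5 fell and 13 did not pass the test, with a median log2 fold change of 0.85 (-0.021 over all genes), and in 19 every tumor was above every normal kidney. Over all genes tested, 23.6% were higher, 23.8% lower and 5.87% had every tumor above every normal kidney. The largest rises were those of Hexa, a subunit of beta-hexosaminidase (log2 fold change 3.64, adjusted p = 4.50e-11), the lysosomal beta-galactosidase Glb1 (3.02, adjusted p = 1.38e-09), Trim63, a ubiquitin ligase (2.94, adjusted p = 2.27e-06), and the protease cathepsin B, Ctsb (2.89, adjusted p = 2.96e-09; all edgeR). Ctsb was at 5453 to 13584 CPM in tumors and 775 to 2479 CPM in normal kidneys. Hexa was at 341 to 1069 CPM in tumors and 30.2 to 99.2 CPM in normal kidneys, and for these 4 genes the groups did not overlap.

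The falls were led by Atp6v0d2 (-4.80, adjusted p = 2.78e-08), a subunit of the vacuolar ATPase made by intercalated cells of the collecting duct and also among the distal markers above, from 21.4 to 59.9 CPM in normal kidneys and from 0.344 to 6.66 CPM in tumors (-5.50 without tumor 7). Abhd6, a lipid hydrolase (-0.75, adjusted p = 0.0352), Gabarapl1, an autophagy protein (-0.73, adjusted p = 0.0356), and Hif1a, a hypoxia-inducible transcription factor (-0.67, adjusted p = 0.0280; all edgeR), fell as well. Of the 20 fits that each left out a library, Abhd6 was called in 13 (not without normal kidney 7 or tumors 1, 2, 3, 4, 6 or 10), Gabarapl1 in 11 (not without normal kidneys 1, 2, 3, 9 or 10 or tumors 2, 3, 4 or 7) and Hif1a in 15 (not without normal kidneys 5 or 7 or tumors 2, 6 or 10). The count of falls was 2 without tumor 2 and 3 without normal kidney 7 or any of tumors 3, 4, 6 and 10. Summed, the targets lay between 24867 CPM (tumor 7) and 44112 CPM in tumors and between 10720 and 18846 CPM in normal kidneys.

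**Figure D5:**
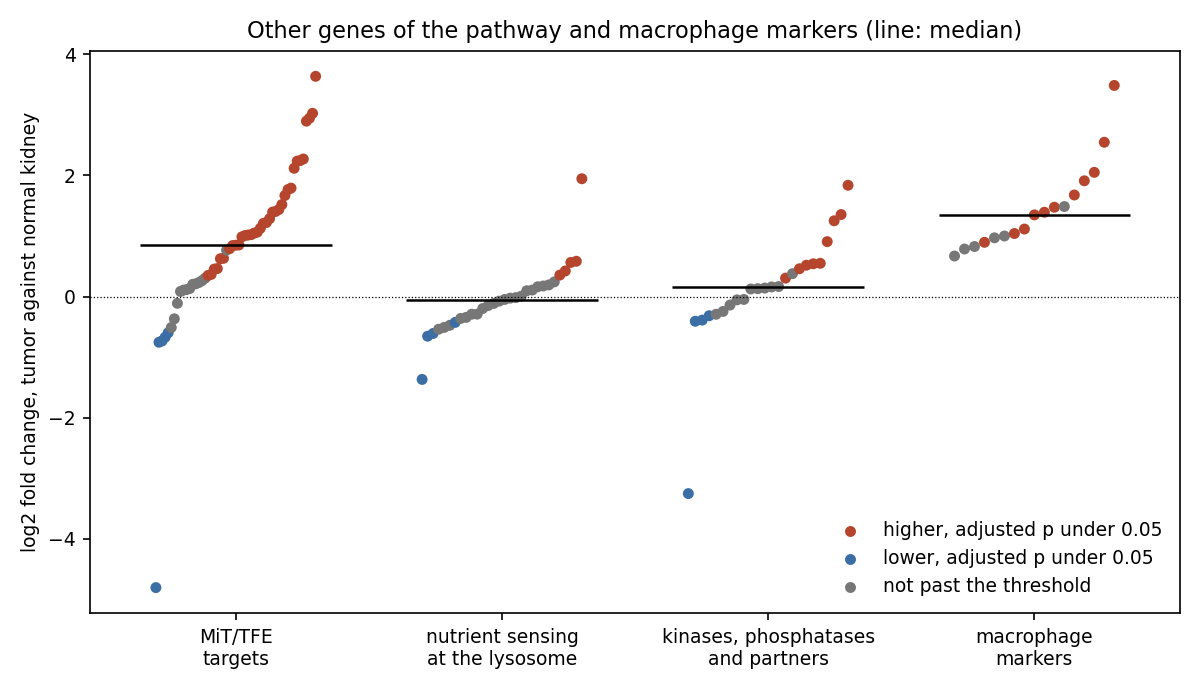
Log2 fold change (y axis, tumor against normal kidney) of each tested gene in 4 lists, ordered by value within a list, with a line at the median and colors for the edgeR call at an adjusted p of 0.05. The medians were 0.85 for targets, -0.062 for nutrient sensing, 0.15 for kinases, phosphatases and partners, and 1.35 for macrophage markers.

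Of 30 genes of the nutrient sensing machinery at the lysosome, all tested, 5 rose, 4 fell and 21 did not pass the test (median log2 fold change -0.062 against -0.021 over all genes). Among all genes tested, 23.6% were higher and 23.8% lower, larger shares than in this list. Sesn3, a sestrin that inhibits mTORC1 through GATOR2, rose most (1.94, adjusted p = 3.98e-07), from 19.9 to 100.5 CPM in normal kidneys to 136 to 410 CPM in tumors. Lamtor1 (0.58, adjusted p = 0.00357) and Lamtor3 (0.56, adjusted p = 4.61e-05), which anchor the Rag GTPases to the lysosome, and the arginine sensor Slc38a9 (0.42, adjusted p = 0.00989) rose by less. The falls were Castor1, another arginine sensor (-1.37, adjusted p = 0.001), Itfg2, a subunit of KICSTOR (-0.65, adjusted p = 1.97e-05), the edited gene Tsc1, and the mTORC1 activator Rheb (-0.43, adjusted p = 0.0138; all edgeR). The partners of RagC and RagD did not pass the test, with Rraga at 0.16 (adjusted p = 0.152) and Rragb at -0.36 (adjusted p = 0.412). Scaled by library totals or the upper quartile, 3 genes of this list rose and 9 fell. With quality weights 10 rose and 10 fell, with DESeq2 or the replicate block 8 fell, and without normal kidney 5 there were 7 falls.

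Of 24 kinases, phosphatases and partners that act on MiT/TFE proteins, 9 rose, 4 fell and 11 did not pass the test (median log2 fold change 0.15 against -0.021 over all genes, of which 23.6% were higher and 23.8% lower). Rcan1, an inhibitor of calcineurin, the phosphatase that acts on TFEB, rose most (1.84, adjusted p = 3.36e-05), and its relative Rcan2 fell most (-3.25, adjusted p = 4.98e-07). The genes of 14-3-3 proteins Ywhag (1.35, adjusted p = 3.72e-06) and Ywhah (0.91, adjusted p = 0.00177) and of the AMPK subunit Prkab2 (1.25, adjusted p = 1.49e-05) rose, and those of the other AMPK beta subunit Prkab1 (-0.41, adjusted p = 0.0137), the ubiquitin ligase Stub1 (-0.39, adjusted p = 0.0449) and the kinase Map4k3 (-0.32, adjusted p = 0.0121; all edgeR) fell. Stub1 was called in 8 of the 20 fits that each left out a library (not without normal kidneys 1, 2, 3, 4 or 9 or tumors 1, 3, 4, 5, 6, 8 or 10).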

How the data were processed

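Bulk RNA-seq was analysed from 10 tumor and 10 normal kidney libraries, made from Trizol RNA by poly A enrichment at a sequencing company. The authors deposited raw read counts per gene without normalization, and the submitters' processing notes name the build mm10. The aligner, the counting tool and the use of strand are not given in the sources used here. The table had 0 unused sample columns, and coordinates and exon lengths of the 10 genes equal those of GENCODE M21.

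Counts were scaled by TMM and filtered (count minimum 10), and groups were compared by edgeR 4.0.16 in R 4.3.3 with the quasi-likelihood test on all 20 libraries, without covariates. Benjamini-Hochberg adjustment covered all 15354 genes tested. CPM use TMM-scaled totals and log2 CPM a prior count of 2. SE is the log2 fold change divided by the root of F. Ratios used counts per gene length with 0.5 added. Permutation tests were run with 100000 resamples, those of ratios in SciPy 1.17.1 and those of relations in NumPy 2.4.6. The fits of group differences were tested on simulated data in which far fewer genes differed than were called here. The steps for ratios, relations and Dixon's test were not tested in this way. None of the 90 pairs of libraries within a group agreed within sampling noise, and pairs across groups were not compared. Alternatives were other scalings (library totals, upper quartile, RLE), DESeq2 1.42.0, limma-voom (limma 3.58.1) without and with quality weights, no filter, a filter of 1 CPM in 10 libraries, same-numbered libraries as blocks, and leaving out each library.

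Named genes were the 10 genes, the 4 largest called rises and falls of each list, the 5 genes most like Gpnmb and Rragd over tumors, and the edited genes. Distal, proximal tubule and other marker lists are given by counts and sums, and genes outside the rule are named as checks or as the remaining members of a short list. A gene of the target list is counted but not reported here by name. The genes and lists were chosen with earlier results of these data known. Counts per library limit precision for counting error only.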

Additional observations from a re-analysis of the deposited data

Results flagged for a closer look

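Among 30 sets of 10 values tested (log2 CPM of the 10 genes and the 5 ratios in each group), 5 had a library far from the others by Dixon's test, where chance gives about 1 in 20. In tumors, tumor 7 was lowest for Tfec, with a log2 CPM of 3.64 against 4.88 for the next tumor. It was also lowest for the ratio of Tfec to Tfeb, with a log2 ratio of -0.47 against 0.53, and highest for the ratio of Mitf to Tfeb, with -0.73 against -1.31. In normal kidneys, library 9 was lowest for Fnip1, with a log2 CPM of 3.85 against 5.81 for the next, and for Fnip2, with 4.53 against 5.92.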

How the results depend on the processing

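Over the alternatives tried, 291 values of the 10 genes kept their direction and side of the threshold, 5 changed sign, 3 gained a call and 1 lost it. Tfe3 lost its call with library totals (0.33, adjusted p = 0.0571). Fnip1, never called, changed sign with library totals (-0.050), the upper quartile (-0.0056), quality weights (-0.0089), without normal kidney 9 (-0.0091) and without tumor 7 and normal kidney 9 (-0.0019). Fnip2 was called lower with quality weights (-0.22, adjusted p = 0.0415), without normal kidney 9 (-0.33, adjusted p = 0.0135) and without tumor 7 and normal kidney 9 (-0.36, adjusted p = 0.0100). Leaving out single libraries, or tumor 7 and normal kidney 9 together, gave 6 to 6 genes higher and 2 to 3 lower. Targets counted 33 to 39 higher (37 without tumor 7 alone, 39 without both) and 2 to 5 lower (2 without tumor 2). Nutrient sensing genes counted 5 to 6 higher and 4 to 7 lower. The log2 fold change of Gpnmb lay between 6.62 and 7.39 in these fits (7.68 by limma-voom, 7.81 with the replicate block and 8.38 with quality weights, the highest of all alternatives). Nutrient sensing genes counted 3 higher and 9 lower with library totals, 3 and 9 with the upper quartile, 10 and 10 with quality weights, and 8 lower with DESeq2. The log2 fold change of Fnip1 reached 0.16 without normal kidney 10. The log2 ratio of Rragd to Rragc ranged from -0.026 to 0.19 (-0.016 without normal kidney 5). Relations with Gpnmb, none of which passed, changed sign in tumors without tumor 7 for Tfeb (range over left-out libraries -0.18 to 0.48), Fnip2 (-0.25 to 0.11), Rragc (-0.24 to 0.28) and the macrophage sum (-0.65 to 0.24), and with library totals for Rragc (-0.32). In normal kidneys they did so with library totals for Mitf (0.018) and Tfeb (0.011), without library 7 for Mitf (-0.45 to 0.15) and Flcn (-0.49 to 0.44), and without library 9 for Fnip1 (-0.13 to 0.44) and the macrophage sum (-0.29 to 0.41). The cause was not tested.

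The labels do not tie library numbers to mice, although tumors and normal regions came from the same mice. With same-numbered libraries as a replicate block, 3979 genes were higher and 3886 lower (3631 and 3661 without), 8 nutrient sensing genes were lower, and no call of the 10 genes changed. Deviations of same-numbered libraries correlated with r between -0.14 and 0.38, over 0.1 in 9 of 10 pairs, and 8 of 10 tumors were closest to the kidney of their number, a hint from the data and not the design.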
